A study of Mus musculus with 7 samples.

Results

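The licensing factors and the MCM helicase are a group of 10 genes, taken by symbol from the 24419 genes of one count table: Mcm2, Mcm3, Mcm4, Mcm5, Mcm6, Mcm7, Mcm10, Cdc6, Cdt1 and Gmnn. All 10 were found in the table, and all 10 passed the filter on low counts, which left 11594 genes for testing. The RNA came from LLC1 cells, a line of mouse Lewis lung carcinoma, kept in DMEM with 10% fetal bovine serum. In 3 libraries the cells carried an shRNA that knocked down Ddx54, a nucleolar DEAD-box RNA helicase, and in 4 libraries they were labelled as wild-type for Ddx54. The labels name neither a control construct for the wild-type cells nor the shRNA sequence, and they do not say whether the knockdown cells were 1 clone or a pool. Polyadenylated RNA was sequenced, and the deposited values are raw read counts for each gene. Whether the replicates were separate cultures is not said, and the p-values therefore describe only the spread among these libraries, which may be technical.

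Before a cell copies its DNA, each origin of replication has to be licensed. The origin recognition complex binds the origin, Cdc6 and Cdt1 join it, and together they load the ring of Mcm2 to Mcm7 around the DNA as an inactive helicase. Once S phase starts, Cdc7 with Dbf4, Cdc45, the GINS proteins and Mcm10 turn the loaded rings into moving helicases, while geminin (Gmnn) binds Cdt1 so that no origin is licensed again. Transcription of most of these genes is known to rise towards S phase under E2F transcription factors, which bind short GC-rich sequences near the start of their target genes.

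RefSeq promoter windows (build GRCm38.p6), reaching from 250 bases before each gene start to 50 bases after it, were found for 8 of the 10 genes, in 9 windows because Mcm7 has 2 starts. They were searched on both strands for the E2F-type octamers TTTCCCGC, TTTCGCGC, TTTGCCGC and TTTGGCGC. At least 1 octamer was found in 6 of the 8 genes (Mcm3, Mcm5, Mcm6, Mcm7, Cdc6 and Cdt1), against 4.95% of tested genes with a window. By window, 6 of the 9 held one, whereas 2.26% of all 32851 windows did. Those matches are shown because 5 of these genes were higher in knockdown, as 14.1% of all tested genes were. Cdt1, which has an octamer too, did not pass the test. Mcm2 and Mcm10, whose windows held none, were higher as well. Mcm4 and Gmnn, which were also higher, had no window to search. Whether the octamers have a part in the rise was not tested. In Mcm5 and Mcm6 matches on opposite strands overlap into a single run. The 250 bases before the starts of both genes, from chr8:75109259-75109508 on the plus strand and chr1:128359706-128359955 on the minus strand, read as follows from 5′ to 3′ along the gene, with the octamers in capitals.
Mcm5: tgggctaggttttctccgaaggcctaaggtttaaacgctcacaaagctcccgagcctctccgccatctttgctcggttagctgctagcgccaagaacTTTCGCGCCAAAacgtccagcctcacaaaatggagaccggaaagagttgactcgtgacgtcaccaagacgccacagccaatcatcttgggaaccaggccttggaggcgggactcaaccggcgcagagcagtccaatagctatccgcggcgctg
Mcm6: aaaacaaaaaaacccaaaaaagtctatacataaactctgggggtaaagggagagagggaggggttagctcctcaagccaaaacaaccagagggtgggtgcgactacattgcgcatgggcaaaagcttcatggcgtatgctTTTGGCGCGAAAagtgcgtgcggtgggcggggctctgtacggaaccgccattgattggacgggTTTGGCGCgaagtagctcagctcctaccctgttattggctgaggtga

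In the other windows with a match, 30 bases around the octamer show searched spellings, not all alike, in different places. The octamer began 20 bases after the start in Mcm3 (chr1:20820275-20820304, minus strand) and 17 bases after it in Mcm7 (chr5:138171849-138171878, minus strand), with the start itself counted as base 1. It began 33 bases after the start in Cdt1 (chr8:122568035-122568064, plus strand) and at base -138 in Cdc6 (chr11:98908002-98908031, plus strand). All starts here are RefSeq starts and can differ from the GENCODE gene positions given below. In Cdc6 and Mcm7 the RefSeq start used lies inside the GENCODE gene. In Mcm3 and Cdc6 the octamer reads on the strand opposite to the gene. Mcm3 and Mcm7 each held 1 more, which is not shown.
Mcm3: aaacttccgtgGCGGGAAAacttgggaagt
Mcm7: gggtgacgacgTTTCGCGCcaatttcggtt
Cdc6: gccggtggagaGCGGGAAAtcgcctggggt
Cdt1: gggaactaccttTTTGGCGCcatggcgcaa

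The CCAAT box, the letters CCAAT on either strand, was found in 6 of the 8 genes (Mcm2, Mcm3, Mcm5, Mcm6, Mcm7 and Mcm10). Of tested genes with a window, 43.6% held it. By window it was found in 7 of the 9, against 37.4% of all windows. None of the 9 windows held CACGTG, an E-box that Myc can bind, which 7.15% of all windows hold. These matches are letters in a window and not evidence of binding. Of the 8886 tested genes with a window, 440 held an E2F-type octamer, and 24.3% of these were higher and 11.1% were lower in knockdown (edgeR adjusted p under 0.05). Among the 8446 without one, 13.8% were higher and 15.5% were lower. The median log2 fold change was 0.075 with an octamer and 0.001 over all tested genes.

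The knockdown was visible in every library. Ddx54 stood at 45.9, 39.2 and 45.8 CPM in knockdown, against 80.4, 82.5, 78.6 and 83.2 CPM in wild-type, where CPM is the count scaled to library size with TMM factors. The fitted level in knockdown was 53.7% of wild-type (log2 fold change -0.90, SE 0.096, edgeR adjusted p = 6.55e-09). Libraries held 14987324 to 17702932 counts in knockdown and 15293346 to 18673395 in wild-type. Members were covered by 419 to 11952 reads per library, so counting error alone was 4.89% at the lowest and 0.915% at the highest. Rn45s, a ribosomal RNA gene, took 7.96 to 9.07% of counts in knockdown and 10.7 to 12.5% in wild-type, and with it left out the same number of members, 9, was called higher. Of 3 tested genes among 6 carcinoma markers 2 fell, Krt18 (131.7 CPM in knockdown and 217.5 CPM in wild-type) and Krt19 (1.08 CPM in knockdown and 4.39 CPM in wild-type), Krt8 did not pass, and Epcam and Cdh1 were near 0. None of the tested leukocyte (1), endothelial (1) and fibroblast (6) markers passed in the main edgeR fit. Of these, 2 fibroblast markers had an unadjusted p under 0.05 there (Pdgfra and Acta2). DESeq2 called Pdgfra higher (0.37, adjusted p = 0.0323) and Acta2 lower (-1.23, adjusted p = 0.0246). Acta2 was also called lower by limma-voom (-1.39, adjusted p = 0.045). In edgeR it was called lower with at least 50 counts in at least 3 libraries (-1.23, adjusted p = 0.0221) and without knockdown replicate 1 (-1.75, adjusted p = 0.0205). The 8 leukocyte markers summed to 2.80 to 4.72 CPM in knockdown and 2.13 to 5.03 CPM in wild-type, nearly all of it Cd68, and Cd3e had no read. The 6 endothelial markers summed to 0.706 to 1.19 CPM in knockdown and 1.07 to 3.19 CPM in wild-type, with Cdh5, Tek and Emcn at 0. Of the 9 fibroblast markers Thy1 was at 0, Col1a1 was near it, and Col3a1 made up nearly all of a sum that overlapped between the groups (1060 to 1128 CPM in knockdown and 1048 to 1239 CPM in wild-type).

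Of the 10 members, 9 rose in knockdown and Cdt1 did not pass the test, while 0 fell. In the same comparison 14.1% of all tested genes were higher and 15.3% were lower (edgeR quasi-likelihood test, Benjamini-Hochberg adjusted p under 0.05). For the same 9 members every knockdown library lay above every wild-type library, which was so for 17.5% of all tested genes. The median log2 fold change was 0.50 over the 10 members and 0.001 over all tested genes. In bulk RNA, a larger share of cells in the phases that use these genes and more RNA per cell cannot be told apart.

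**Figure D1:**
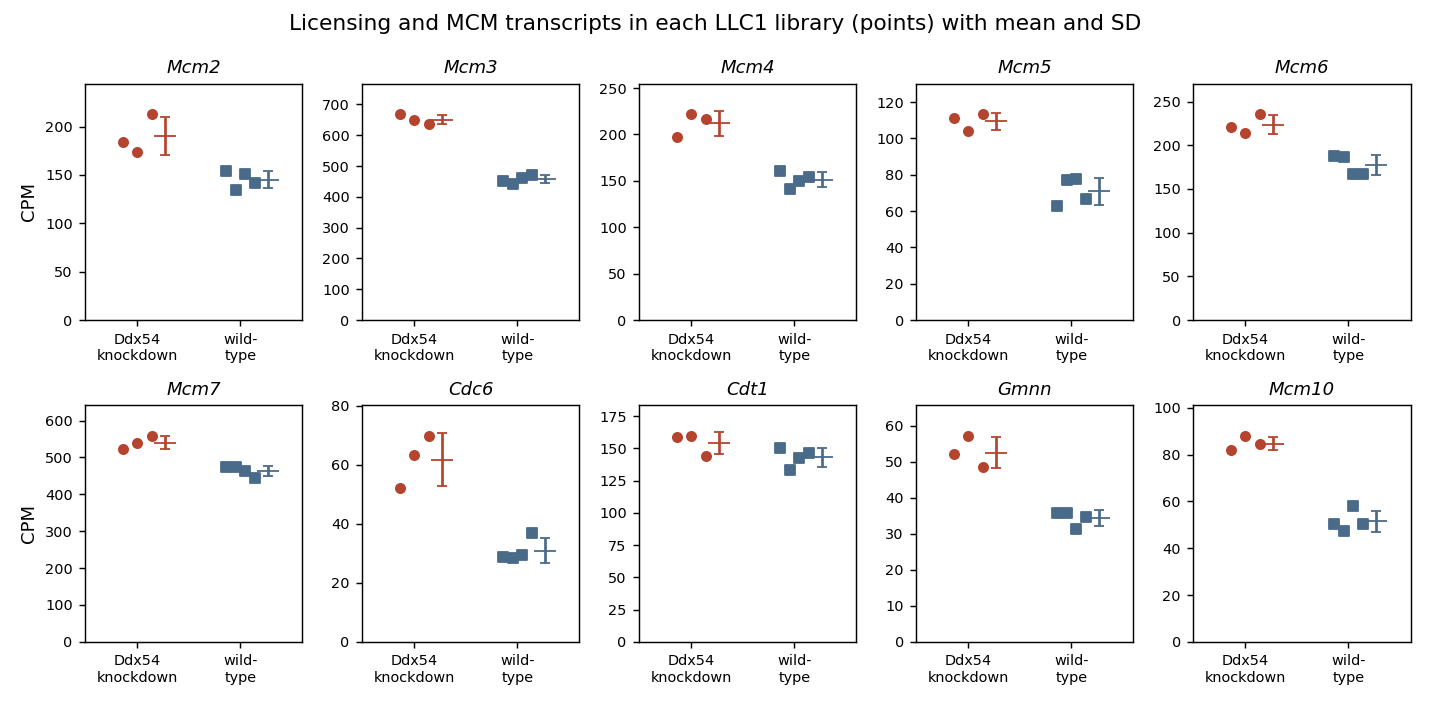
CPM (linear axis from 0) of the 10 members in each library, with 3 Ddx54 knockdown libraries as red circles, 4 wild-type libraries as blue squares, and the mean and SD of each group beside the points. For Cdc6 the knockdown libraries lie at 52.1 to 69.6 CPM and the wild-type libraries at 28.5 to 37.0, and Cdt1 is the member whose groups overlap.

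The 6 subunits of the helicase ring all rose, by 0.22 to 0.63 on the log2 scale. Together they made up 1904, 1902 and 1972 CPM in the knockdown libraries and 1491, 1457, 1470 and 1447 CPM in the wild-type libraries. The sum was thus 31.4% higher in knockdown, at 1926 ± 39.8 against 1466 ± 19 CPM (SD, n = 3 and 4). As a share of all raw counts the ring took 0.195 to 0.202% in knockdown and 0.140 to 0.146% in wild-type. The raw share leaves out the TMM factors, which were 1.03 to 1.04 in knockdown and 0.963 to 0.989 in wild-type. It therefore differed more between the groups than CPM did.

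Mcm5 rose most among the subunits. It lies on chromosome 8 at 75109569 to 75128439, plus strand (GRCm38, also called mm10, GENCODE gene ENSMUSG00000005410.6), and its protein forms the gate of the ring with Mcm2. It reached 111.0, 104.1 and 113.2 CPM in the knockdown libraries and 62.8, 76.9, 77.7 and 66.5 CPM in the wild-type libraries. The lowest knockdown library was well above the highest wild-type library, and the log2 fold change was 0.63 (SE 0.088, edgeR adjusted p = 1.09e-06). Mcm2, on chromosome 6 at 88883474 to 88898780, minus strand, is the other side of that gate and a target of the Cdc7 kinase. It reached 183.9, 174.1 and 212.6 CPM in knockdown and 153.8, 134.7, 151.1 and 141.6 CPM in wild-type. Knockdown replicate 3 was the highest library and the groups did not overlap, with a log2 fold change of 0.39 (SE 0.075, edgeR adjusted p = 0.000143).

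Mcm3 and Mcm4 rose by nearly the same amount. Mcm3, on chromosome 1 at 20802968 to 20820312, minus strand, was at 667.6, 648.7 and 636.4 CPM in knockdown and 451.9, 443.4, 461.6 and 472.3 CPM in wild-type. It varied little within either group, and its log2 fold change was 0.51 (SE 0.058, edgeR adjusted p = 2.05e-08), the smallest p of the 10. Mcm4, on chromosome 16 at 15623897 to 15637400, minus strand, belongs to the catalytic core with Mcm6 and Mcm7. It was at 196.9, 221.5 and 217.1 CPM in knockdown and 160.5, 140.9, 149.3 and 154.0 CPM in wild-type. Replicate 1 was the lowest of the knockdown libraries and still above all of wild-type, and the log2 fold change was 0.49 (SE 0.070, edgeR adjusted p = 1.8e-06). The starts of Mcm4 and Prkdc, which encodes a DNA repair kinase, lie 466 bases apart on opposite strands. Prkdc was at 16.6 ± 1.57 CPM in knockdown and 14.9 ± 4.03 CPM in wild-type and did not pass (0.15, SE 0.19, edgeR adjusted p = 0.605), and its interval of -0.22 to 0.53 includes the value of Mcm4.

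Mcm6 and Mcm7 rose least of the ring. Mcm6, on chromosome 1 at 128331590 to 128359664, minus strand, was at 220.6, 213.9 and 235.2 CPM in knockdown and 187.6, 186.3, 167.2 and 166.9 CPM in wild-type. The groups did not overlap, and the log2 fold change was 0.33 (SE 0.069, edgeR adjusted p = 0.000312). Mcm7, on chromosome 5 at 138164583 to 138172422, minus strand, was at 523.6, 539.2 and 557.6 CPM in knockdown and 474.2, 474.9, 462.8 and 445.6 CPM in wild-type. The gap between the groups was narrow against the level, and the log2 fold change was 0.22 (SE 0.059, edgeR adjusted p = 0.00453). Exons of Mcm7 overlap those of Ap4m1 by 321 bases and of Cops6 by 64 bases, both on the other strand, and the strand setting of the counting is not given in the sources used here. Ap4m1, an adaptor subunit of vesicle transport, was at 2.79 ± 1.41 CPM in knockdown and 4.72 ± 3.81 CPM in wild-type and did not pass (edgeR adjusted p = 0.269). Cops6, a subunit of the COP9 signalosome, was lower (-0.23, edgeR adjusted p = 0.0244), and its call was lost without knockdown replicate 2 or 3, after a GC and length correction, and under a replicate block (adjusted p = 0.0616 to 0.161 over these settings). The microRNA genes Mir25 and Mir93 lie inside Mcm7 models and had 1 and 0 reads in all 7 libraries.

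Per length, the 6 subunits were not equal in either group. Levels as RPKM (CPM divided by the kilobases of the union of annotated exons) ranged from 27.3 ± 2.87 for Mcm2 to 173 ± 4.19 for Mcm3 in knockdown and from 17.8 ± 1.87 for Mcm5 to 122 ± 3.32 for Mcm3 in wild-type. Mcm7 came next, at 122 ± 3.85 RPKM in knockdown and 105 ± 3.09 RPKM in wild-type, followed by Mcm4 (59.0 and 42.1 RPKM) and Mcm6 (47.8 and 37.9 RPKM). Mcm2 and Mcm5 were lowest, and their libraries overlapped in both groups (Mcm2 at 25 to 30.6 RPKM in knockdown and 19.4 to 22.1 RPKM in wild-type, Mcm5 at 26.1 to 28.3 RPKM in knockdown and 15.7 to 19.5 RPKM in wild-type). The ratio of the highest to the lowest subunit was 6.54 ± 0.493 in knockdown and 6.92 ± 0.799 in wild-type, with overlapping libraries. The overlap depends on the gene model: with the longest transcript as the length, the ratio was 5.62 to 6.14 in the knockdown libraries and 6.80 to 8.62 in the wild-type libraries, which did not overlap. The order depends on it too: with the longest transcript as the length, Mcm2 was at 54.4 RPKM in knockdown and 41.6 RPKM in wild-type, and Mcm7 stood above Mcm3 in wild-type (157 against 133 RPKM).

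Within the ring the share of Mcm7 was lower in knockdown. Its share of the summed RPKM of the 6 subunits was 26.1 to 27.1% in the knockdown libraries and 29.4 to 31.3% in the wild-type libraries. The share of Mcm5 was 5.75 to 6.14% in knockdown and 4.49 to 5.62% in wild-type. These were the 2 subunits whose shares did not overlap between the groups, and Mcm3, at 36.4 to 39.3% in knockdown and 34.4 to 36.8% in wild-type, overlapped only slightly. With the longest transcript as the length, the share of Mcm7 was 31.4 to 32.4% in knockdown and 35 to 37% in wild-type. Shares of 1 sum are bound to each other by construction, and no test was made of them.

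**Figure D2:**
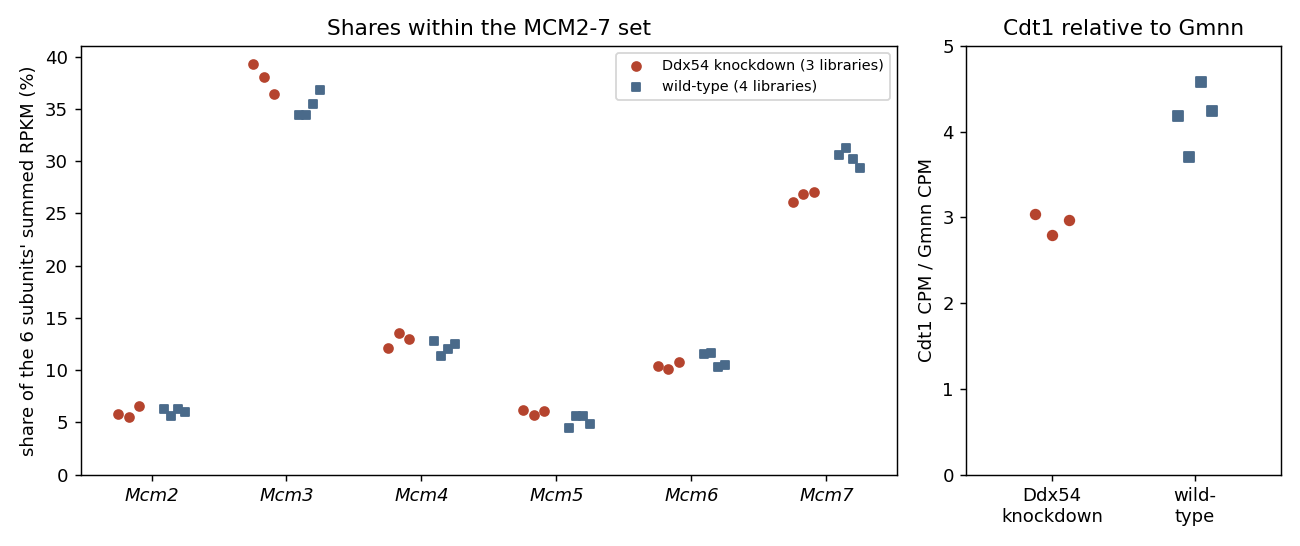
Left, share of each subunit in the summed RPKM of Mcm2 to Mcm7 (percent, y axis) in the 3 Ddx54 knockdown libraries (red circles) and the 4 wild-type libraries (blue squares), where Mcm7 lies at 26.1 to 27.1% in knockdown and at 29.4 to 31.3% in wild-type. Right, the ratio of Cdt1 CPM to Gmnn CPM in the same libraries, 2.79 to 3.04 in knockdown and 3.70 to 4.58 in wild-type.

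Of the loaders, Cdc6 rose and Cdt1 did not pass the test. Cdc6, the ATPase that joins the origin recognition complex, lies on chromosome 11 at 98907801 to 98923940, plus strand. It was at 52.1, 63.4 and 69.6 CPM in the knockdown libraries and 28.8, 28.5, 29.3 and 37.0 CPM in the wild-type libraries. Wild-type replicate 4 stood above the other wild-type libraries but below every knockdown library, and the log2 fold change of 1.0 (SE 0.12, edgeR adjusted p = 8.64e-08) was the largest of the 10. Without wild-type replicate 4 it was 1.10. Cdt1, which brings the ring to the origin, lies on chromosome 8 at 122568015 to 122573554, plus strand. Its level was 158.7, 159.5 and 144.3 CPM in knockdown and 150.3, 133.1, 142.9 and 146.7 CPM in wild-type, so the groups overlapped. It did not pass the test (log2 fold change 0.11, 95% interval -0.04 to 0.25, edgeR adjusted p = 0.30; two-sided exact permutation p = 0.171 from 35 splits). The correction for GC content and transcript length was the one setting that gave it a call (0.20, SE 0.071, edgeR adjusted p = 0.0295), and under the same correction with a replicate block the edgeR adjusted p was 0.0739. The ratio of Cdc6 to Cdt1 CPM was 0.329 to 0.482 in knockdown and 0.192 to 0.252 in wild-type. CPM do not account for gene length, so this ratio serves only to compare the groups. No test was made of it.

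Gmnn, the inhibitor of Cdt1, rose. The gene lies on chromosome 13 at 24751845 to 24761923, minus strand. It was at 52.1, 57.1 and 48.5 CPM in the knockdown libraries and 35.9, 35.9, 31.2 and 34.6 CPM in the wild-type libraries, with no overlap (log2 fold change 0.61, SE 0.11, edgeR adjusted p = 7.8e-05). The ratio of Cdt1 to Gmnn CPM was 3.04, 2.79 and 2.97 in the knockdown libraries and 4.18, 3.70, 4.58 and 4.24 in the wild-type libraries. Its mean was 29.7% lower in knockdown, at 2.93 ± 0.129 against 4.18 ± 0.362 (SD, n = 3 and 4). This ratio leaves out gene length too, and it was not tested. Per length of the union of exons, Cdt1 and Gmnn were closer, at 49.1 and 35.9 RPKM in knockdown and 45.6 and 23.5 RPKM in wild-type. Both proteins are known to be controlled by degradation, which transcript counts do not show.

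Mcm10, which helps to start the loaded helicase and is not part of the ring despite its name, rose the most after Cdc6. It lies on chromosome 2 at 4989714 to 5012791, minus strand. Its level was 82.0, 87.9 and 84.4 CPM in knockdown and 50.3, 47.3, 57.9 and 50.4 CPM in wild-type. The groups lay far apart, with a log2 fold change of 0.72 (SE 0.094, edgeR adjusted p = 3.03e-07).

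In order of fold change the members ran from Cdc6 through Mcm10, Mcm5, Gmnn, Mcm3, Mcm4, Mcm2, Mcm6 and Mcm7 to Cdt1. For every pair of neighbours in this order the approximate 95% interval of the difference included 0, and the widest step was from Cdc6 to Mcm10, 0.28 with a combined SE of 0.15. The position among all tested genes also ranged widely: 97.2% of genes had a lower fold change than Cdc6, 92.5% than Mcm5, 71.7% than Mcm7 and 60.9% than Cdt1. Taken singly, each of the 9 members that rose had a two-sided exact permutation p of 0.0286, which is the smallest that 35 splits allow.

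**Figure D3:**
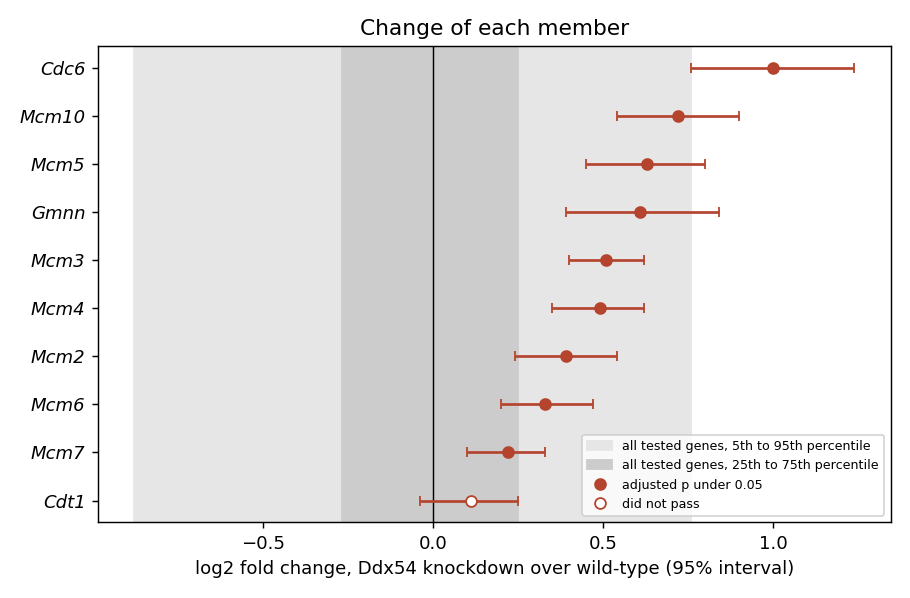
Log2 fold change of each member, Ddx54 knockdown over wild-type, with an approximate 95% interval, over grey bands that hold the middle of all tested genes (-0.27 to 0.25 for the 25th to 75th percentile, -0.88 to 0.76 for the 5th to 95th). Filled circles passed an adjusted p of 0.05, the open circle (Cdt1) did not, and only the Cdc6 estimate lies beyond the wider band.

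Library by library, the mean deviation of the 10 members from their group mean lay between -0.040 and 0.031 log2 units in the knockdown libraries and between -0.029 and 0.011 in the wild-type libraries. Each library had between 3 and 6 of the 10 members above its group mean.

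The genes whose pattern over the 7 libraries was most like the mean pattern of Mcm2 to Mcm7 were Hnrnpab, Mrps7, Actl6a, Ubp1, Smarca5 and Ddx3x. Likeness was the root-mean-square difference in centred log2 CPM among 8054 other genes at 10 CPM or more, and it ran from 0.027 for Hnrnpab to 0.044 for Ddx3x. These genes had log2 fold changes of 0.38 to 0.44. Hnrnpab, an RNA-binding protein, was at 884.5 ± 19.5 CPM in knockdown and 680.4 ± 13.9 CPM in wild-type. The ring subunits themselves lay at 0.069 to 0.141 from their own mean. The 6 genes were chosen for their closeness, so neither their distances nor their fold changes near those of the ring are a finding.

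Partners that place the ring on origins were looked at next. For this and each later list of related genes, the shares over all tested genes were 14.1% higher and 15.3% lower. Of 9 genes of origin recognition and loading, 3 rose and 0 fell, with a median log2 fold change of 0.07. Orc1, the regulated ATPase subunit of the origin recognition complex, rose most, at 11.1 ± 2.40 CPM in knockdown and 5.17 ± 1.23 CPM in wild-type (1.10, SE 0.25, edgeR adjusted p = 0.00108). Orc2 rose by 0.32 (edgeR adjusted p = 0.00182) and Orc6 by 0.28 (edgeR adjusted p = 0.0169). The Orc6 call was lost without wild-type replicate 4 (adjusted p = 0.0514), without knockdown replicate 2 or 3 (adjusted p = 0.0571 and 0.0800), and under a replicate block, alone or after GC and length correction (adjusted p = 0.0852 and 0.0573). Orc3, Orc4 and Orc5 did not pass. Mcmbp, which binds free MCM subunits, was at 114.4 ± 10.7 CPM in knockdown and 104.7 ± 5.26 CPM in wild-type (0.13, edgeR adjusted p = 0.255), and Kat7, a histone acetyltransferase that acts at origins, had a fold change of 0.05 (edgeR adjusted p = 0.687).

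Of 13 genes that fire the loaded helicase, 8 rose, 0 fell and 5 did not pass, with a median of 0.42. Across the alternative settings 7 to 8 of these genes were higher. Cdc7, the kinase that phosphorylates the ring, was at 27.6 ± 4.28 CPM in knockdown and 16.0 ± 2.20 CPM in wild-type (0.78, SE 0.16, edgeR adjusted p = 0.000232), and its activator Dbf4 rose by 0.30. Ticrr, also called treslin, rose by 0.74 (SE 0.19, edgeR adjusted p = 0.00267). Of the 4 GINS genes, Gins3 (0.58, edgeR adjusted p = 0.00118) and Gins1 (0.55, edgeR adjusted p = 0.00679) rose, while Gins4 (0.19, edgeR adjusted p = 0.233) and Gins2 (0.10, edgeR adjusted p = 0.656) did not pass. Mtbp, the partner of treslin, went the other way without passing (-0.22, edgeR adjusted p = 0.0925); it passed as lower without wild-type replicate 3 (-0.28, adjusted p = 0.0316).

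Among 15 genes for the turnover of licensing factors and the unloading of the helicase, 7 rose, 1 fell and 7 did not pass, with a median of 0.29. Skp2, a ubiquitin ligase adaptor that targets Cdt1 in S phase, was at 63.6 ± 4.21 CPM in knockdown and 36.3 ± 4.29 CPM in wild-type (0.81, SE 0.11, edgeR adjusted p = 8.22e-07). Fbxo5, also called Emi1, which protects geminin from degradation, rose by 0.51 (edgeR adjusted p = 3.18e-05). Vcp, the ATPase that extracts the ring from DNA, rose by 0.47 (edgeR adjusted p = 3.68e-07), and so did Pcna, the clamp on which Cdt1 is marked for degradation (0.46, edgeR adjusted p = 0.000297). Ddb1, a subunit of the ligase that acts there, was the 1 that fell, to 749.1 ± 17.8 CPM in knockdown against 890.3 ± 33.7 CPM in wild-type (-0.25, edgeR adjusted p = 0.00111), while Dtl, its substrate receptor for Cdt1, rose by 0.31 (edgeR adjusted p = 0.0187). The Dtl call was lost without wild-type replicate 4, without knockdown replicate 1 or 2, after GC and length correction, and under a replicate block with or without it (adjusted p = 0.0582 to 0.389). Over all alternatives 6 to 9 genes of the list were higher. Cul4a (0.01, edgeR adjusted p = 0.969) and Rbx1 (0.11, edgeR adjusted p = 0.325) of the same ligase did not pass.

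The relatives Mcm8 and Mcm9, which act in DNA repair, were low and did not pass. Mcm8 was at 18.8 ± 2.65 CPM in knockdown and 17 ± 1.49 CPM in wild-type (0.15, edgeR adjusted p = 0.554), and Mcm9 was at 5.81 ± 1.63 CPM in knockdown and 4.82 ± 0.656 CPM in wild-type (0.27, edgeR adjusted p = 0.552). Mcmdc2, Mcidas and Gmnc, the geminin relative of ciliated cells, were too low to test, and Gmnc had no read in any library.

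**Figure D4:**
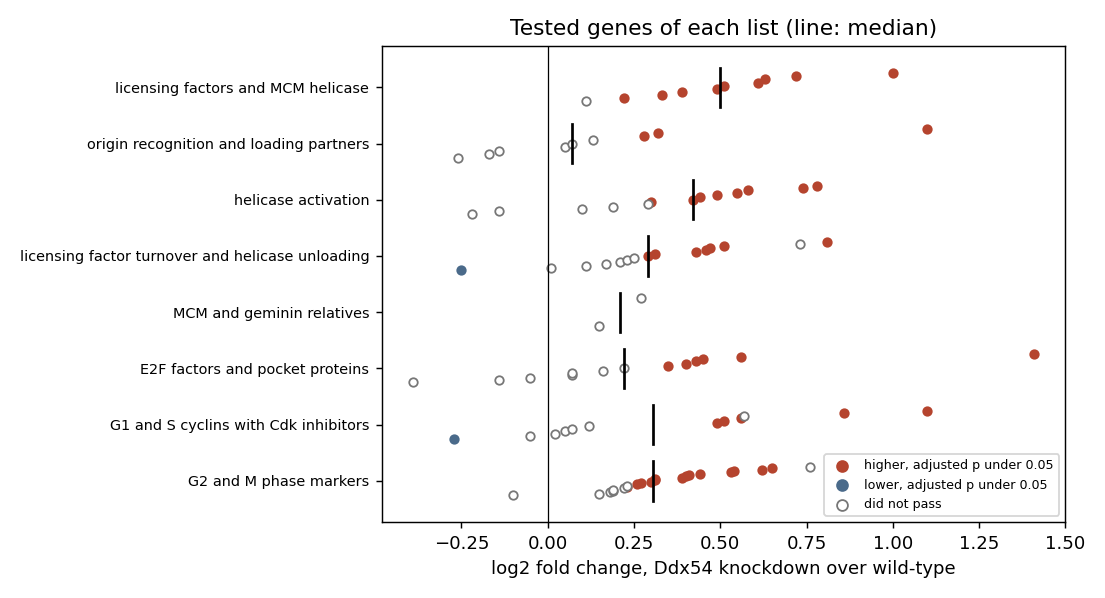
Log2 fold change, Ddx54 knockdown over wild-type, of every tested gene in the member list and in 7 lists of related genes, with filled red circles for genes that rose, filled blue circles for genes that fell, open circles for genes that did not pass, and a black line at each list's median. The member list has a median of 0.50, helicase activation 0.42, turnover and unloading 0.29, and origin recognition and loading partners 0.07.

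Of 13 genes for E2F factors, their partners and pocket proteins, 6 rose, 0 fell and 7 did not pass, with a median of 0.22. E2f1, an activator, was at 63.8 ± 6.50 CPM in knockdown and 43.3 ± 2.52 CPM in wild-type (0.56, SE 0.11, edgeR adjusted p = 9.69e-05), and the activators E2f2 (0.43, edgeR adjusted p = 0.00945) and E2f3 (0.35, edgeR adjusted p = 0.0105) also rose. E2f7, a repressor that E2F1 induces, rose by 1.41 (edgeR adjusted p = 1.55e-09), whereas its relative E2f8 did not pass (0.07, edgeR adjusted p = 0.546). The repressor E2f4 did not pass (-0.14, edgeR adjusted p = 0.356). Rbl1, the pocket protein p107, rose by 0.45 (edgeR adjusted p = 0.0109). Without knockdown replicate 3, 3 of the list passed in place of 6, since E2f2, E2f3 and Rbl1 were lost (adjusted p = 0.0621 to 0.11), and Rbl1 was also lost without knockdown replicate 2 (adjusted p = 0.0935). Under a replicate block 4 of the list passed, with Rbl1 (adjusted p = 0.0585, and 0.115 after GC and length correction) and E2f3 (adjusted p = 0.0624, and 0.0764 after it) lost.

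Cyclins of late G1 and S phase rose as well. Of 12 tested genes among the G1 and S cyclins with their kinases and inhibitors, 5 rose and 1 fell, with a median of 0.31. Ccne2 and Ccne1, the E cyclins that act at S phase entry, rose by 1.10 and 0.86, and Ccna2 by 0.56 (edgeR adjusted p = 1.22e-07, 8.58e-07 and 2.25e-06). Cdkn2c, an inhibitor of Cdk4 and Cdk6, rose by 0.51 (edgeR adjusted p = 0.0214), but was not called when wild-type replicate 4 or knockdown replicate 2 or 3 was left out, nor under a replicate block, alone or after GC and length correction (adjusted p = 0.0549 to 0.131). The D cyclins Ccnd1 (1425 ± 38.8 CPM in knockdown and 1356 ± 35.5 CPM in wild-type) and Ccnd2 did not pass (edgeR adjusted p = 0.363 and 0.601). Ccnd3, a D cyclin at 7.2 CPM in knockdown and 4.84 CPM in wild-type, did not pass either (0.57, edgeR adjusted p = 0.123). Cdkn1a, the inhibitor p21, was the 1 that fell (-0.27, edgeR adjusted p = 0.000708). Of 22 markers of G2 and M phase 14 rose and 0 fell, with a median of 0.30, led by Ttk (0.65), Plk1 (0.62), Cenpe (0.54) and Ccnb1 (0.53). Across the alternative settings 12 to 17 of these markers were higher. Cenpe lost its call without knockdown replicate 3 (adjusted p = 0.055). Mki67, a general marker of cycling cells, was at 276.9 ± 17.1 CPM in knockdown and 163.7 ± 42.8 CPM in wild-type (0.76, edgeR adjusted p = 0.0511) and was called higher in 10 of the 18 alternative settings. Counting Mki67, 8 of the 22 markers did not pass in the main fit, among them Ccnb2 (-0.10, edgeR adjusted p = 0.357). The part of the cells' distribution over the cycle in the rise of the 9 members was not tested.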

How the data were processed

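Polyadenylated RNA of LLC1 cells was measured in 3 Ddx54 knockdown and 4 wild-type libraries. The authors deposited 1 table of unnormalized read counts with a row for each gene symbol. Per the submitters' processing notes, Trimmomatic, STAR, HTSeq and mm10 were used, with no role or version named. The annotation, strand setting and treatment of multi-mapping reads: not given in the sources used here. The table has 0 further sample columns.

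Testing used edgeR 4.0.16 (R 4.3.3) on these counts: filterByExpr, TMM factors, and the robust quasi-likelihood test of knockdown against wild-type with no covariate, on the whole table. Benjamini-Hochberg adjustment ran over 11594 genes, with a threshold of 0.05. The SE is the absolute log2 fold change over the square root of F and is approximate. Values are mean ± SD (n = 3 knockdown, n = 4 wild-type). Every pair of libraries within a group differed beyond sampling noise (chi-square per degree of freedom 8.52 to 16.9). Positions and lengths come from GENCODE M21 (GRCm38). Members and lists were chosen with earlier results of these data known. In each list up to 4 genes past the threshold with the largest change and up to 2 others with the highest level were named. Dbf4, Gins2, Dtl, Ddb1, Cdkn1a, Ccnd3, E2f3, Rb1, Orc3, Orc4, Orc5, Ccnb2, Col1a1, Acta2 and the untested genes were added after their values were seen. Alternatives were RLE and upper-quartile factors, no filter, at least 50 counts in 3 libraries, limma-voom (limma 3.58.1), DESeq2 1.42.0, a replicate block, equal depth (14987324 counts), Rn45s left out, a loess correction for GC content and length (span 0.5; 96.3% of tested genes), and each library left out.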

Additional observations from a re-analysis of the deposited data

Results flagged for a closer look

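In the wild-type group of 4, 70 quantities (named genes, the summed ring and 3 ratios between members) were checked for 1 library lying far from the other 3. There were 6 such cases, where chance gives about 3.5. Wild-type replicate 4 had 37.0 CPM of Cdc6 against 28.5 to 29.3 in the other wild-type libraries. The same library had 39.5 CPM of E2f1 against 44.2 to 44.7, and 924.6 CPM of Ccnd2 against 878.8 to 884.8. Wild-type replicate 2 had 96.6 CPM of Rbx1 against 92.9 to 93.4, and 2.99 CPM of Plvap against 0.491 to 0.888. Wild-type replicate 3 had 3.66 CPM of Krt19 against 4.52 to 4.69. None of the other 9 members had such a library.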

How the results depend on the processing

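All 9 rising members kept their direction and call under all 18 alternatives, which were planned. Their log2 fold changes ranged from 0.90 to 1.11 for Cdc6, 0.68 to 0.78 for Mcm10, 0.57 to 0.67 for Mcm5, 0.55 to 0.67 for Gmnn, 0.49 to 0.55 for Mcm3, 0.45 to 0.54 for Mcm4, 0.30 to 0.45 for Mcm2, 0.29 to 0.36 for Mcm6 and 0.19 to 0.27 for Mcm7, whose adjusted p reached 0.0443 without Ddx54 knockdown replicate 3. Cdt1 passed with the GC and length correction alone (0.20, adjusted p = 0.0295), so that 10 members were higher there, and ranged from 0.07 to 0.20. The cause was not tested. All tested genes higher in knockdown numbered 1222 to 1716 and those lower 1409 to 1860. In the E2F list 3 to 6 genes were higher when libraries were left out, and 0 to 1 lower; with the GC and length correction 1 was lower, Rb1 (-0.47). In helicase activation 0 to 1 were lower with libraries left out, and in origin recognition 1 was lower with the replicate block and the GC and length correction, Orc5 (-0.46). The cause of these was not tested. The ratio of highest to lowest subunit level with the longest transcript, which by construction changes the lengths, was 5.90 in knockdown and 7.53 in wild-type, without overlap. With libraries left out it was 6.36 to 6.82 in knockdown and 6.67 to 7.18 in wild-type.

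Replicate numbers are shared between the groups, and the labels do not say what the numbers mean. Same-numbered libraries did not deviate together (correlations -0.034, -0.027 and -0.006), which does not show whether they were handled together. With the replicate block, in which wild-type replicate 4 has no partner and drops out, 9 members were higher and 0 lower, and Cdc6 changed by 1.09, Mcm7 by 0.20 and Cdt1 by 0.12 (not passed). At equal depth 9 members were higher and 0 lower.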
